A study of Mus musculus with 23 samples.

Results

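Genes of white and brown adipocytes were followed in total RNA of mouse mesenteric arteries, the small vessels that feed the gut. The group holds 36 genes, each found in the deposited table by its gene symbol, out of 39179 genes listed there. Male C57BL/6J mice aged 10 to 12 weeks received under the skin angiotensin II (Ang II), a peptide hormone that constricts arteries and raises blood pressure, at 1000 ng/kg/min, or had sham treatment. There were 6 libraries from mice given Ang II for 7 days, 6 from sham mice at 7 days, 5 from mice given Ang II for 14 days and 6 from sham mice at 14 days. The titles give each library an animal number of its own. All groups shared the strain, the sex and the method of dissection, in which the arteries were freed of the adjoining tissue, fat and veins before 500 ng of RNA went into each library. The adipocyte transcripts measured here are therefore those that remained after that cleaning. In bulk RNA of this kind, fewer adipocytes and less of a transcript per adipocyte cannot be told apart.

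Mesenteric arteries run through a sheath of perivascular fat that is mostly white in character in the mouse gut. White adipocytes take up fatty acids released by lipoprotein lipase, store them as triglyceride in a large droplet coated by perilipins, and release them again through a chain of lipases. They also secrete hormones such as adiponectin and leptin. Brown adipocytes burn the stored lipid for heat through the mitochondrial uncoupling protein UCP1. The receptor PPARG and the factor CEBPA drive the shared adipocyte programme.

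The promoters of 5 of the genes are shown because the results below turn on them. Adipoq served as the measure of adipocyte RNA in a library, and Ucp1 was high in 2 libraries only. Cfd, Cidec and Acly were called different at a given Adipoq level at 14 days, where the Acly call depended on single libraries. Car3, called in the same fit, is not shown here. The RefSeq promoter table on GRCm38.p6 held 25 of the 36 genes. Each sequence covers the 250 bases before the annotated start and runs 5′ to 3′ on the strand of the gene. Capitals mark matches on either strand to AGGTCA (the half-site of nuclear receptors such as PPARG), TTGCNNAA (a core bound by CEBP factors), CCAAT (the CCAAT box) or TATAAA (the TATA box).
Adipoq: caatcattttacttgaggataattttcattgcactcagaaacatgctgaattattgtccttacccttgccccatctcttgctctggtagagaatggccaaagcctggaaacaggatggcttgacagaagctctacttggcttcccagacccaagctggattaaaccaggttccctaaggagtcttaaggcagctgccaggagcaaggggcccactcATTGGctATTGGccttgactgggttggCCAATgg
Cfd: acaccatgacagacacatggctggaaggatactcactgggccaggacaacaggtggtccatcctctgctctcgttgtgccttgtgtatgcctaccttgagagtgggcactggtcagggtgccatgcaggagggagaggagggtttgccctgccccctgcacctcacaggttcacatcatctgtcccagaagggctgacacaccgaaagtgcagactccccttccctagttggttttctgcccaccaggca
Cidec: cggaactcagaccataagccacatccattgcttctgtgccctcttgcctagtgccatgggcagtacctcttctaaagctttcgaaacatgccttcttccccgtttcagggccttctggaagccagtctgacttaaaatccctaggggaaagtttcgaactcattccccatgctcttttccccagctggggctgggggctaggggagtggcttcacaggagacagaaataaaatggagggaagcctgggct
Acly: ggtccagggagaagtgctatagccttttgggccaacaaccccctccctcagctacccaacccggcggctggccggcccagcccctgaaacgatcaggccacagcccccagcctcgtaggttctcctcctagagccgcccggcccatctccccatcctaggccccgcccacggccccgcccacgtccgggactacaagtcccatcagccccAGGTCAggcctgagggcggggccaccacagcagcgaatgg
Ucp1: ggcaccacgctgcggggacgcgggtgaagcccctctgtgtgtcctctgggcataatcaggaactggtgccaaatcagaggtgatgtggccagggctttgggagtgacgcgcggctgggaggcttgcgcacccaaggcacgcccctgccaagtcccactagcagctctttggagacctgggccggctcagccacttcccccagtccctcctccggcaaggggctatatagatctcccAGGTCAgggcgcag
These windows lie at chr16:23146286-23146535 on the plus strand for Adipoq, chr10:79890603-79890852 on the plus strand for Cfd, chr6:113435761-113436010 on the minus strand for Cidec, chr11:100528001-100528250 on the minus strand for Acly and chr8:83290098-83290347 on the plus strand for Ucp1. The Adipoq window held 3 matches to CCAAT, the Acly and Ucp1 windows held 1 match each to AGGTCA, and the Cfd window and the first listed Cidec window held no match to any of the 4 motifs. Among the 25 genes, counting the first listed window of each, 7 held AGGTCA, against 14% of the 32851 windows in the table. CCAAT was in 6 of the 25, against 33.8% of windows. TTGCNNAA was in 2, against 9.56%, and TATAAA was in 1, against 12.4%. A match to these letters is a description of the sequence and not a binding site.

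The libraries held 4471038 to 21509283 reads, with group means of 13848268 reads for Ang II and 8898834 for sham at 7 days, and of 18587447 for Ang II and 14214829 for sham at 14 days. Values are the authors' normalized expression signal. Genes with a value of at least 1 in at least 5 libraries were tested, which left 14896 genes. Of the 36 adipocyte genes 34 passed this filter, and Ucp1 and Elovl3 did not. RNA of tissue next to the arteries was present throughout. The sum of 11 pancreatic acinar markers ranged from 53866 to 139816 with Ang II and from 102770 to 206380 in sham at 7 days, and from 47658 to 91458 with Ang II and from 77657 to 161023 in sham at 14 days. At 14 days 10 of the 11 acinar genes were called lower with Ang II, with a median log2 fold change of -0.90.

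All defining white adipocyte genes (Adipoq, Plin1, Cidec, Lep, Retn and Cfd) were detected in all 23 libraries, so adipocyte RNA was present in each. The 36 genes together took 0.788 ± 0.197% of reads with Ang II (SD, n = 5) and 0.743 ± 0.432% in sham (n = 6) at 14 days. At 7 days they took 0.723 ± 0.416% with Ang II and 0.572 ± 0.160% in sham (n = 6 each). These totals include the transcript AY036118, whose share of reads was 0.0431 to 0.934% with Ang II and 0.799 to 9.35% in sham at 14 days, and 0.0788 to 13.2% with Ang II and 0.113 to 36.2% in sham at 7 days. Without it the 36 genes took 0.791% with Ang II and 0.776% in sham at 14 days, and 0.759% with Ang II and 0.678% in sham at 7 days. Per kilobase of transcript the highest mean levels over all libraries were those of Cfd (463), Scd1 (443), Fabp4 (441) and Car3 (390), with Adipoq at 112. Cfd encodes the complement protease adipsin, Scd1 the desaturase that makes monounsaturated fatty acids, Fabp4 the fatty acid carrier of adipocytes, and Car3 a cytosolic carbonic anhydrase abundant in fat. The lowest on the same scale were Ppargc1a (1.02), Ucp1 (0.964) and Elovl3 (0.0657). By these levels the list read mostly as white adipocyte RNA, with Ucp1 and Elovl3 at or under 3 reads in 18 and 20 of the 23 libraries. Cidea, another brown adipocyte gene, had 4 to 196 reads per library and a mean of 2.73 per kilobase. Prdm16, a regulator of the brown and beige programme outside the list, had a median value of 27.8.

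These genes varied far more between animals of 1 group than most genes did. Their median SD within groups was 0.60 on the log2 scale for the 34 tested genes, against 0.24 over all 14896 tested genes. Among genes whose mean was 10 or more the median was 0.62 for 30 adipocyte genes and 0.19 for all 8988. Adipoq, the adiponectin gene on chromosome 16, spanned 5.87-fold, from 57.9 in Ang II replicate 6 at 7 days to 340.0 in sham replicate 6 at 14 days. Pck1, whose enzyme makes the glycerol backbone of triglyceride from pyruvate and other precursors in fat, spanned 50.0-fold and Lep, the leptin gene, 38.7-fold. Slc2a4, the insulin-responsive glucose transporter that muscle also makes, varied least at 1.89-fold.

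A few libraries set that spread. Sham replicate 6 at 14 days was the highest of its group for 32 of the 34 tested genes, Ang II replicate 2 at 7 days for 30, sham replicate 4 at 7 days for 29 and Ang II replicate 4 at 14 days for 22. Sham replicate 5 at 14 days was the lowest of its group for 25 of the 34, and Ang II replicate 6 at 7 days likewise for 25. Ang II replicate 1 at 14 days was the lowest of its group for 19, and sham replicate 5 at 7 days for 15. Each of the 4 groups thus held 1 library that was the highest for most of these genes. Sham replicates 5 and 6 at 14 days have title numbers that start with 27 and 28, while the other 4 sham libraries of that time start with 26. In those 4 Adipoq ran from 79.98 to 137, so the wide sham range at 14 days was set by animals of other number series. In sham at 7 days the other libraries lay close together, with Adipoq from 96.6 to 127 against 251 in replicate 4.

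**Figure D1:**
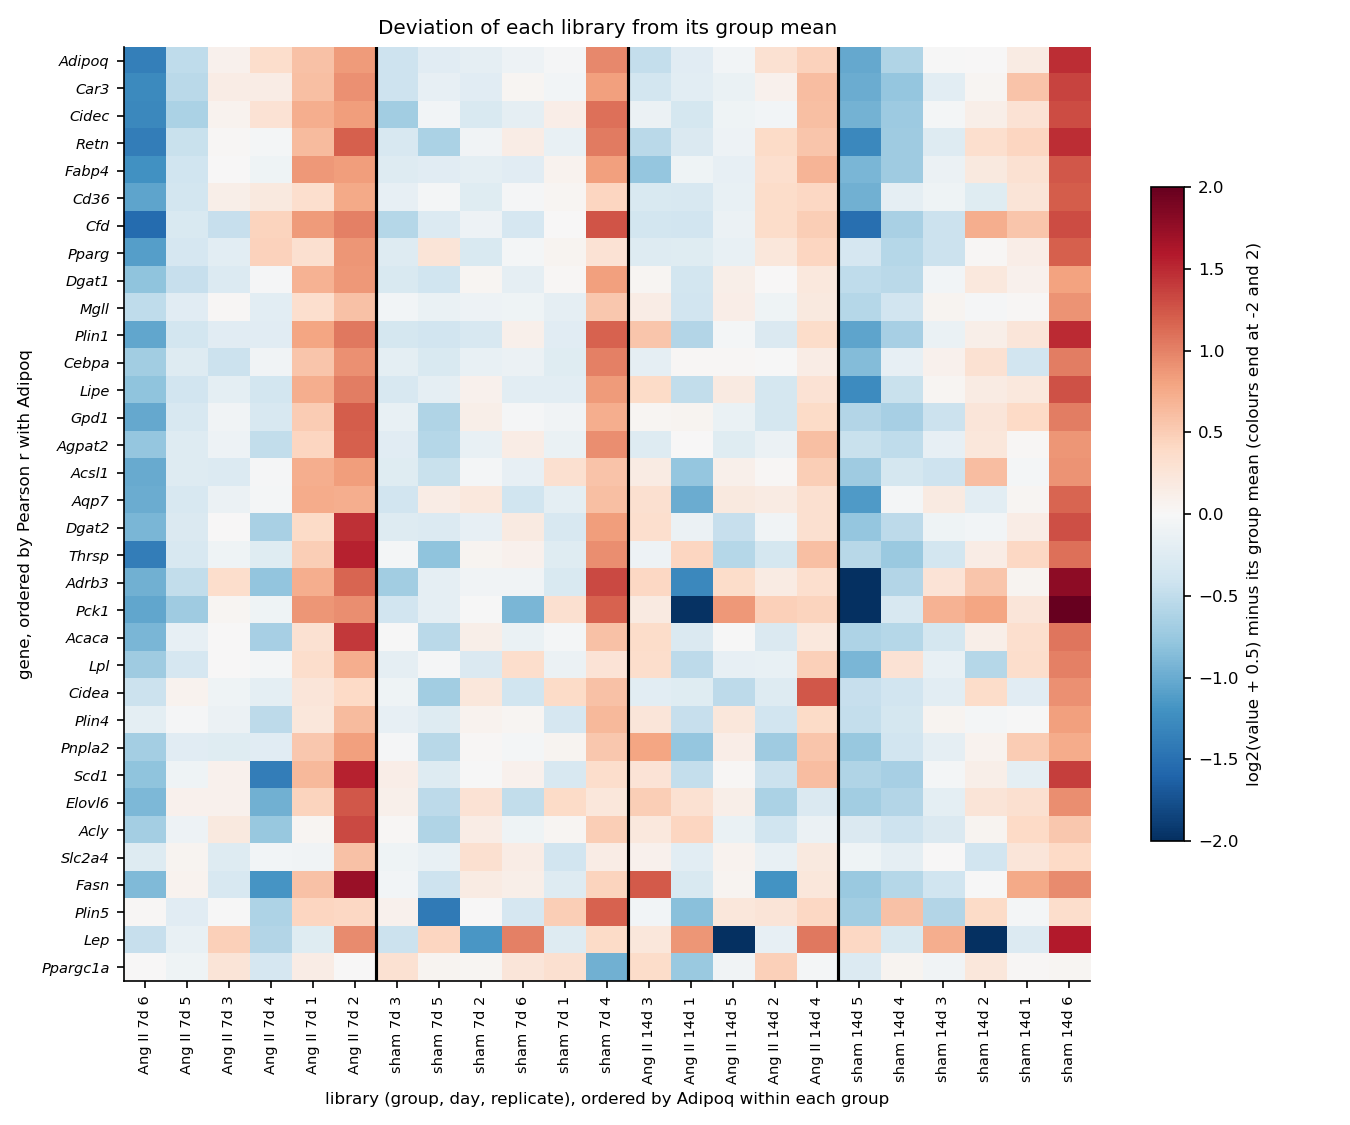
Heat map of log2(value + 0.5) minus its group mean for the 34 tested adipocyte genes (rows, by Pearson r with Adipoq) in the 23 libraries (columns, grouped and ordered by Adipoq). Within each group the columns change from blue to red for most genes together, and Lep and Ppargc1a at the bottom do not follow Adipoq.

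The first question was whether Ang II changed adipocyte transcripts after 7 days. The test was limma on log2(value + 0.5) over all tested genes, with calls made where the Benjamini-Hochberg adjusted p was under 0.05. No adipocyte gene was called (0 of 34), where 0.819% of all tested genes were, and none had an unadjusted p under 0.05 (9.28% of all genes); edgeR and DESeq2 also called 0. Adipoq had values with Ang II of 57.9 at the lowest, 175 at the median and 272 at the highest, and in sham of 96.6, 117 and 251. The groups overlapped almost fully, and the log2 fold change was 0.22 ± 0.37 (SE; limma adjusted p = 0.93). Cfd lay between 153 and 894 with a median of 485 with Ang II, and between 221 and 785 with a median of 288 in sham (log2 0.45 ± 0.45, limma adjusted p = 0.87). Over the 34 genes, 22 fold changes were positive and 12 negative, with a median of 0.13 on the log2 scale, against 0.00 for all genes. The widths of the intervals limit this comparison, since the 95% interval for Adipoq ran from -0.56 to 0.99.

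After 14 days again no adipocyte gene was called by limma (0 of 34), where 6.06% of all tested genes were. An unadjusted p under 0.05 was reached by 4 of the 34 (Acly, Elovl6, Cfd and Pnpla2), against 24.6% of all genes. edgeR called 0 of the adipocyte genes and DESeq2 called 2, Acly (log2 -0.87, DESeq2 adjusted p = 0.023) and Elovl6 (log2 -0.96, DESeq2 adjusted p = 0.038). DESeq2 called 1795 of all 14896 tested genes in this comparison, so 2 of 34 is no excess. Fold changes were positive for 20 genes and negative for 14, with a median of 0.12, against 0.03 for all genes. No adipocyte gene separated the groups without overlap at either time, where 1.22% of all genes did so at 7 days and 3.65% at 14 days.

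**Figure D2:**
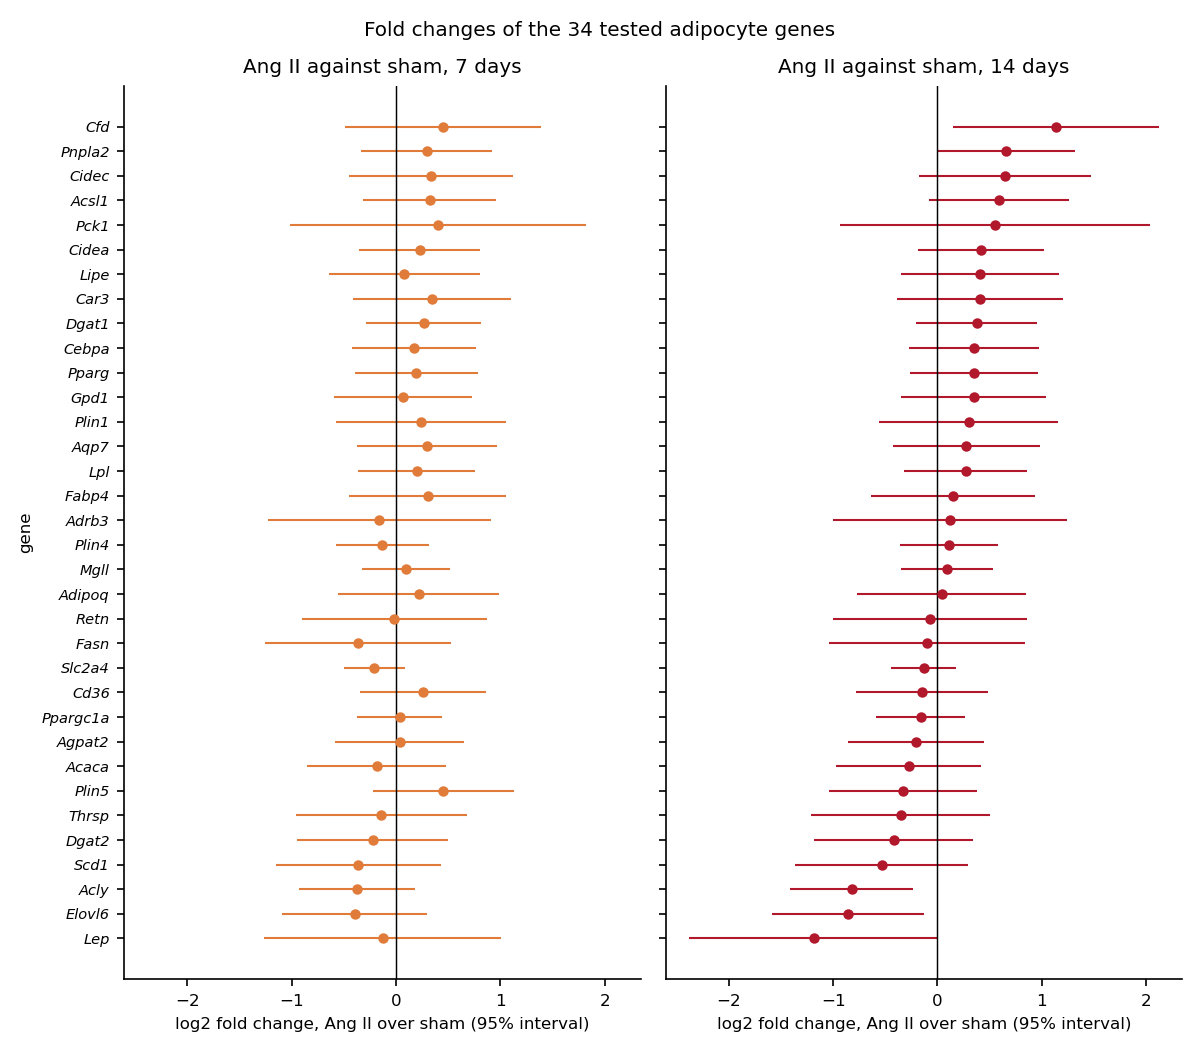
Log2 fold change of Ang II over sham with its 95% interval for the 34 tested adipocyte genes at 7 days (left) and 14 days (right), ordered by the value at 14 days. Every interval at 7 days includes 0, while at 14 days those of Cfd, Pnpla2, Acly and Elovl6 do not, although none of the 34 passed the adjusted threshold.

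Among the secreted products, Adipoq stood at 107, 155, 89.9, 173 and 120 in the 5 Ang II libraries at 14 days. In sham at 14 days its lowest, median and highest values were 59.6, 122 and 340. All 5 Ang II values lay inside the sham range, and the log2 fold change was 0.04 ± 0.39 (SE; limma adjusted p = 0.96). Its sign turned under other choices, to -0.15 with edgeR and -0.18 with DESeq2, so no direction can be given. Retn, which encodes the hormone resistin made by mouse fat, had 45.2, 72.2, 37.7, 81.2 and 51.3 with Ang II, against 23.5, 61.0 and 163 as the lowest, median and highest of sham. Its fold change was -0.07 ± 0.45 on the log2 scale (SE; limma adjusted p = 0.94).

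Cfd had the largest positive fold change of the 34 genes at 14 days. Its values were 408, 684, 411, 750 and 490 with Ang II, and in sham 84.7 at the lowest, 267 at the median and 596 at the highest. The Ang II libraries all lay above the sham median, yet the ranges overlapped. The log2 fold change of 1.13 ± 0.47 (SE), or 2.19-fold, did not pass the threshold (limma adjusted p = 0.14). It did so when values were scaled to the library total without the transcript AY036118 (log2 1.34, limma adjusted p = 0.043), a scaling that moved the median of all genes at 14 days by 0.19. Within the animals whose title numbers start with 26, the only such series with both groups at 14 days, the mean difference for Cfd was 0.96 on the log2 scale (3 Ang II and 4 sham).

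Lep values with Ang II at 14 days were 11.9, 5.50, 7.33, 13.3 and 1.16. In sham they ran from 2.92 to 45.1 with a median of 15.97. The sham group held the highest values but the ranges overlapped, and the log2 fold change of -1.19 ± 0.57 (SE) did not pass (limma adjusted p = 0.20). At 7 days Lep gave -0.13 ± 0.55 (SE; limma adjusted p = 0.97).

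**Figure D3:**
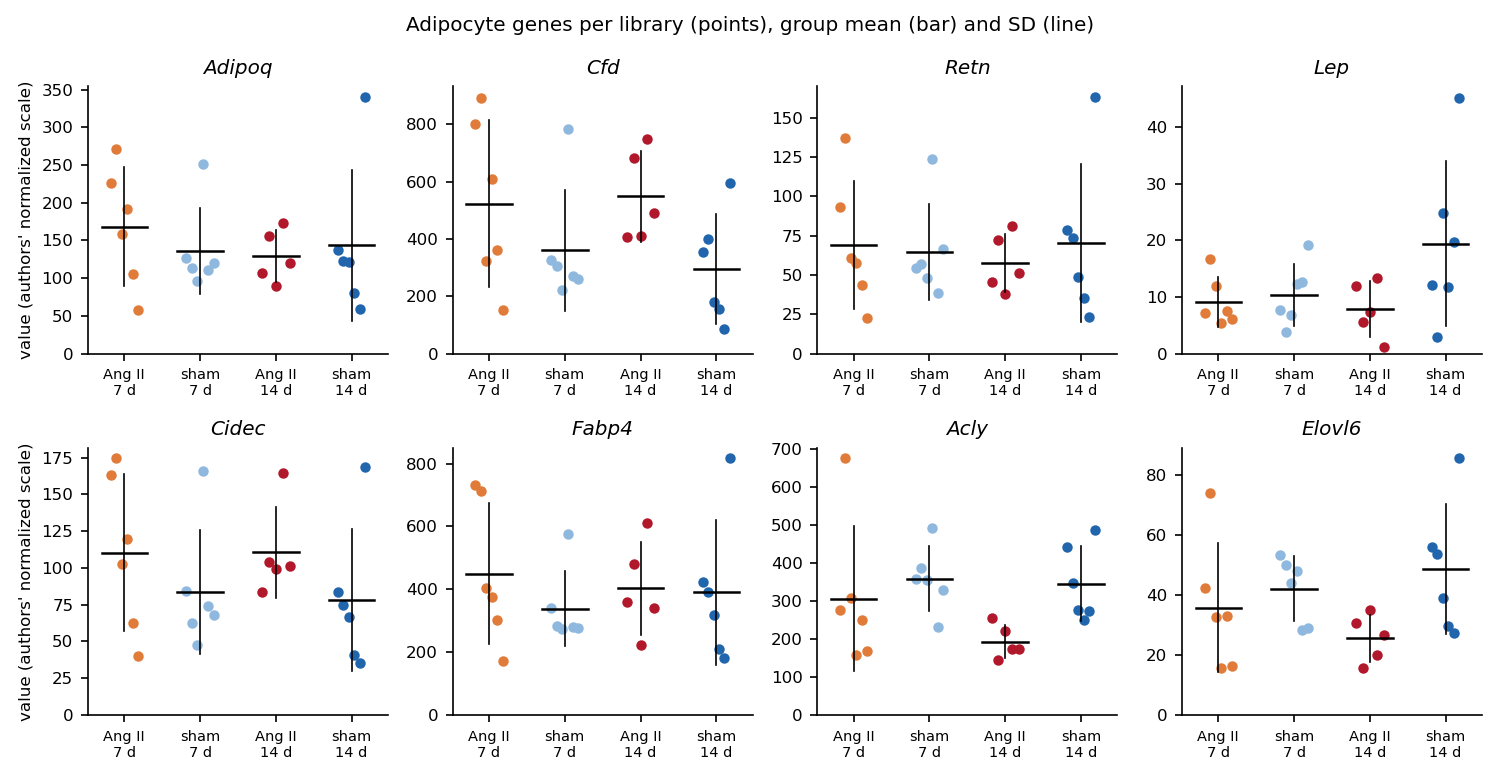
Values on the authors' normalized scale for 8 adipocyte genes in each library (points), with the group mean (bar) and SD (vertical line), Ang II left of sham at each time. Single libraries such as sham replicate 6 at 14 days stand high for most of the genes, Cfd has all 5 Ang II points at 14 days at 408 or more, and Acly has them at 255 or less.

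The lipid droplet genes gave no called change at either time. Cidec, whose protein fuses droplets in white adipocytes, had 83.8, 104, 99.2, 164 and 101.4 with Ang II at 14 days, against 35.3, 70.5 and 169 as the lowest, median and highest in sham (log2 0.65 ± 0.40 SE, limma adjusted p = 0.32). The Ang II values filled the upper part of the sham range. Plin1, the droplet coat that gates lipolysis, averaged 43.8 ± 14.2 with Ang II and 40.4 ± 29.3 in sham (SD, n = 5 and 6), and Plin4 averaged 251 ± 64.7 and 236 ± 85.3 in the same order. Plin5, the perilipin of oxidative cells, and Cidea, a droplet protein of brown fat, were low, with means of 1.99 and 4.03 with Ang II and of 2.67 and 2.73 in sham.

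The lipolysis genes had positive fold changes at 14 days in 5 of 5 cases, with a median of 0.28, and none was called. Pnpla2, the lipase that takes the first fatty acid from triglyceride, had 30.3, 31.6, 90.4, 76.6 and 56.8 with Ang II and ran from 19.1 to 55.1 with a median of 31.6 in sham (log2 0.66 ± 0.32 SE, limma adjusted p = 0.20). Of the 5 Ang II libraries 3 lay above the sham maximum and the other 2 near its median. Lipe and Mgll, which encode the next 2 lipases of that chain, gave log2 fold changes of 0.41 and 0.09. Adrb3, the beta-adrenergic receptor that starts lipolysis in rodent fat, gave 0.12, and the glycerol channel Aqp7 0.28. The signs of Adrb3 and Mgll were not stable, at -0.22 and -0.0011 with DESeq2.

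Uptake genes likewise gave no call. Fabp4 had 360, 480, 223, 610 and 342 with Ang II at 14 days, and 183, 355 and 818 as the lowest, median and highest in sham (log2 0.15 ± 0.38 SE, limma adjusted p = 0.83). Cd36, the fatty acid receptor, averaged 274 ± 70.2 with Ang II and 331 ± 187 in sham, and Lpl, the lipoprotein lipase, 281 ± 79.3 with Ang II and 248 ± 120 in sham (SD, n = 5 and 6). Acsl1, which activates fatty acids with coenzyme A, averaged 167 ± 47.4 with Ang II and 115 ± 53.1 in sham. Slc2a4 was close in both groups, at 32.8 ± 3.92 with Ang II and 36.4 ± 7.32 in sham. Of the transcription factors, Pparg averaged 14.99 ± 3.42 and Cebpa 31.1 ± 2.58 with Ang II, against 12.6 ± 7.18 and 26.4 ± 12.7 in sham, and the coactivator Ppargc1a 6.69 ± 2.17 with Ang II and 7.26 ± 0.860 in sham.

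None of the genes of fatty acid synthesis was called by limma. The 6 tested ones, Fasn, Acaca, Acly, Scd1, Elovl6 and Thrsp, had negative fold changes at both times, with medians of -0.36 at 7 days and -0.44 at 14 days, against 0.00 and 0.03 over all genes. The direction at 7 days did not hold within both series of animals. Among those with title numbers from 27 (3 Ang II and 4 sham) the mean log2 differences were positive for Fasn (0.22), Acaca (0.23), Scd1 (0.35) and Thrsp (0.33) and negative for Acly (-0.031) and Elovl6 (-0.053), and among those from 28 (3 Ang II and 2 sham) all 6 were negative. At 14 days the only series with both groups gave 6 negative values, from -0.75 to -0.14. Signs also turned with other settings, where Thrsp was positive at 7 days (0.045 with edgeR and 0.031 with DESeq2) and Fasn at 14 days (0.10 when scaled to library totals without AY036118). Acly makes the acetyl-CoA from which fatty acids are built, and had 255, 143, 220, 174 and 173 with Ang II at 14 days, against 250, 312 and 486 as the lowest, median and highest in sham. Only Ang II replicate 1 reached the lowest sham value. The log2 fold change was -0.82 ± 0.28 (SE) with a limma adjusted p of 0.079, and the same fit on the 14-day groups alone gave an adjusted p of 0.049. Elovl6, the elongase that extends the product of fatty acid synthase, had 30.6, 15.6, 34.9, 20.02 and 26.7 with Ang II, and in sham 27.4, 46.4 and 85.7 at the lowest, median and highest (log2 -0.86 ± 0.35 SE, limma adjusted p = 0.13). Its ranges overlapped in 2 of the 5 Ang II libraries.

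Fasn, which encodes fatty acid synthase, had 491, 263, 1417, 709 and 626 with Ang II at 14 days and ran from 389 to 1251 with a median of 572 in sham, which is -0.10 ± 0.45 in log2 fold change (SE; limma adjusted p = 0.91). Scd1 averaged 1751 ± 572 with Ang II and 2773 ± 1810 in sham (SD, n = 5 and 6; log2 -0.54). At 7 days Acly and Elovl6 gave -0.37 ± 0.27 and -0.39 ± 0.33 (SE; limma adjusted p = 0.77 and 0.83). The difference of the responses at 14 and 7 days was called for 0 of the 34 adipocyte genes and for 0% of all genes with limma, and 0 of the 34 had an unadjusted p under 0.05 (9.37% of all genes). edgeR and DESeq2 called 0 of the 34 as well. Genes of triglyceride assembly showed no common direction at 14 days, with Gpd1 at 0.35, Dgat1 at 0.38 and Pck1 at 0.55 on the log2 scale, and Dgat2 at -0.42 and Agpat2 at -0.21. None of these 5 was called, and the sign of Pck1 was not stable, at -0.24 with the title series as a term and -0.14 to 1.04 with 1 library left out.

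The sham groups of the 2 times did not separate either. For 14-day against 7-day sham limma called 0 of 34 adipocyte genes and 0% of all genes, and 0 of the 34 had an unadjusted p under 0.05 (7.57% of all genes). Neither edgeR nor DESeq2 called an adipocyte gene in this comparison. The sham libraries at 7 days had title numbers from 27 (4) and 28 (2). Those at 14 days had them from 26 (4), 27 (1) and 28 (1). Time and title series can therefore hardly be told apart here. The same limit holds for the difference of the responses, since no 7-day library had a number from 26 or 30.

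Most adipocyte genes varied together with Adipoq from animal to animal. After removal of group means, Pearson's r with Adipoq over the 23 libraries had a median of 0.82 over the other 33 tested adipocyte genes. It was at least 0.8 for 19 of them, while 0.725% of all other tested genes (108 of 14895) reached that value. The closest were Car3 (r = 0.97, Spearman's rho = 0.98), Cidec (0.97 and 0.96), Retn (0.96 and 0.94), Fabp4 (0.96 and 0.94), Cd36 (0.96 and 0.92) and Cfd (0.93 and 0.87). Each of these 6 had a permutation p of 1e-05, the smallest that 100000 permutations can give, for both measures (adjusted p = 4.3e-05 over 39 relations). In all, 31 of the 33 genes had an adjusted permutation p under 0.05 for r and 26 for both measures. The points share libraries, so a value common to all genes of a library enters each relation. Total reads gave r = -0.04 and rho = -0.01 with Adipoq (adjusted permutation p = 0.88 and 0.98).

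Lep and Ppargc1a stood apart. Lep had r = 0.32 and rho = 0.28 (adjusted permutation p = 0.20 and 0.25), and Ppargc1a r = -0.14 and rho = -0.02 (adjusted permutation p = 0.46 and 0.96). Acly, Elovl6, Fasn and Slc2a4 had r of 0.55, 0.55, 0.49 and 0.51. The 2 libraries farthest from the median of Adipoq were sham replicate 6 at 14 days and Ang II replicate 2 at 7 days. Without them r for these 4 genes fell to 0.35, 0.30, 0.24 and 0.22. Together with Plin4 (0.44), Plin5 (0.38) and Scd1 (0.39) these genes no longer passed, though r stayed positive. Leaving out these libraries also narrows the range of Adipoq, which by itself can lower r. Car3, Cidec, Retn, Fabp4, Cd36 and Cfd kept r between 0.92 and 0.96 without them. The difference between the correlations of these genes was not tested.

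The correlations were also taken within series of animals, without a test between them. Among the animals with title numbers that start with 27 (n = 8) and 28 (n = 6) the median r was 0.92 and 0.91, and among those with 26 (n = 7) it was 0.25. Adipoq covered a narrower range in the last series, 79.98 to 155, against 59.6 to 272 in series 27 and 57.9 to 340.0 in series 28. In series 26 Fabp4 (0.95), Retn (0.92), Car3 (0.85), Cidec (0.76) and Cfd (0.76) still followed Adipoq, whereas Plin1 (0.14), Lipe (0.10) and Lpl (-0.33) did not. Ang II replicate 3 at 14 days, a library of this series, had the lowest Adipoq of its group (89.9) but the highest Plin1 (62.0) and Lipe (73.9), with Lpl at 349. It was the highest of its group for 9 of the 34 tested genes and the lowest for 7. Its part in these correlations was not tested. Marker sums of 2 other cell types were also related to Adipoq, in opposite directions. The sum of 7 capillary endothelial markers had r = 0.72 and rho = 0.64 (adjusted permutation p = 0.0012 and 0.0065), and the sum of 8 mesothelial markers, which mark the lining of the abdominal cavity, had r = -0.71 and rho = -0.65 (adjusted permutation p = 0.0029 and 0.0051). Capillary endothelial cells also make Cd36 and Fabp4, and the part of these cells in the correlations was not tested. Over all 23 libraries r was -0.02 for the sum of smooth muscle markers, 0.24 for macrophage and -0.07 for acinar markers. The macrophage sum had r = 0.81 in series 27 (n = 8), against 0.17 in series 26 and 0.045 in series 28. In the same order the capillary sum had 0.96, 0.21 and 0.74, and the mesothelial sum -0.93, -0.53 and -0.87.

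Outside the list, the genes most like Adipoq across the 23 libraries were Cdo1 (r = 0.97), the cysteine dioxygenase gene, and Abcd2 (0.97), a peroxisomal fatty acid transporter. Then came the phospholipase Pla2g16 (0.96), Gstz1 (0.95), Adhfe1 (0.95), the mitochondrial carbonic anhydrase Car5b (0.95), the acid phosphatase Acp5 (0.95), the acyl-CoA binding protein Dbi (0.94), the adiponectin receptor Adipor2 (0.92) and Rgcc (0.92). Rgcc is also among the capillary endothelial markers summed above. These are measures of likeness over libraries and carry no statement on shared control.

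Because Adipoq varied so much within groups, the groups were also compared at equal Adipoq level, with log2(Adipoq + 0.5) as a covariate in the limma fit over all genes. This comparison was added after the values were seen. At 14 days 4 of the other 33 tested adipocyte genes were called, where 8.59% of all genes were. A count of 4 of 33 is near that share, so it shows no clear excess among adipocyte genes. The calls below are those of single genes. Cfd, Cidec and Car3 were higher with Ang II (5.33% of all genes were called higher) and Acly was lower (3.26% were called lower). An unadjusted p under 0.05 was reached by 12 of the 33, against 26.3% of all genes. At 7 days 0 of 33 were called, where 0.920% of all genes were, and 1, Retn, had an unadjusted p under 0.05 (10.2% of all genes). edgeR and DESeq2 called none of them at 7 days.

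At equal Adipoq level Cfd rose by 1.09 ± 0.17 on the log2 scale with Ang II at 14 days (SE; limma adjusted p = 0.0010), or 2.13-fold with a 95% interval of 0.74 to 1.44 on the log2 scale. The ratio of Cfd to Adipoq shows the same in each animal. It was 3.81, 4.40, 4.57, 4.33 and 4.07 in the 5 Ang II libraries, and in sham 1.42 at the lowest, 1.84 at the median and 3.26 at the highest. Every Ang II ratio lay above every sham ratio. At 7 days the ratio ran from 2.04 to 3.55 with a median of 3.23 with Ang II and from 2.16 to 3.13 with a median of 2.51 in sham, and the groups overlapped. The response at 14 days exceeded that at 7 days by 0.88 ± 0.24 (SE; unadjusted p = 0.0011 in the limma fit), which did not pass after adjustment (limma adjusted p = 0.34). The 7-day and 14-day libraries came largely from different title series, so time and series cannot be told apart in that difference. For that difference limma called 0 of 33 and 0% of all genes, and 2 of the 33, Cfd and Cidec, had an unadjusted p under 0.05 (10% of all genes). Within the animals numbered from 26, the log2 ratio at 14 days differed by 0.94 between 3 Ang II and 4 sham mice. Cfd was called under every alternative run, and leaving out each 14-day library in turn gave 0.98 to 1.23 with adjusted p between 0.00012 and 0.0038.

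Cidec rose by 0.61 ± 0.11 on the same scale (SE; limma adjusted p = 0.0018). Its ratio to Adipoq was 0.782, 0.668, 1.10, 0.948 and 0.843 with Ang II, and in sham 0.497 at the lowest, 0.569 at the median and 0.609 at the highest. The ranges were apart, and Cfd and Cidec were the only 2 of 33 adipocyte genes whose ratios did not overlap at 14 days, where 0.101% of all genes did so. That share is not a like measure for the adipocyte genes. All other tested genes had a median r of -0.016 with Adipoq, and division by Adipoq widens the ratio of a gene that does not follow it. By values without division 3.65% of all genes did not overlap at 14 days, and 0 of 34 adipocyte genes. At 7 days the ratios of all 33 overlapped, where those of 0.0336% of all genes did not. The call for Cidec was lost when Plin1 took the place of Adipoq as covariate (log2 0.39, limma adjusted p = 0.15) and when the title series entered as a term (log2 0.55, adjusted p = 0.064). Within the animals numbered from 26 the log2 ratio differed by 0.55.

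Car3 rose by 0.37 ± 0.10 (SE; limma adjusted p = 0.028) and Acly fell by 0.84 on the log2 scale with an SE of 0.24 (limma adjusted p = 0.036). Both calls depended on single libraries. The ratio of Car3 to Adipoq was 5.47, 4.66, 5.87, 6.02 and 5.15 with Ang II and 3.66, 4.07 and 5.58 as the lowest, median and highest in sham, so the groups overlapped. The Car3 call was lost without sham replicate 3, 4 or 6 or without Ang II replicate 3 or 4 (adjusted p between 0.058 and 0.087), and with Plin1 (log2 0.15) or Fabp4 (log2 0.26) as the covariate. The ratio of Acly to Adipoq was 2.38, 0.924, 2.45, 1.01 and 1.43 with Ang II and 1.43, 2.99 and 4.59 as the lowest, median and highest in sham. The Acly call was lost without sham replicate 1, 2, 4, 5 or 6 or without Ang II replicate 2, 4 or 5 (adjusted p between 0.055 and 0.094). With the title series as a term both calls were lost as well (Car3 log2 0.32, limma adjusted p = 0.25; Acly log2 -0.68, limma adjusted p = 0.23). Of the 5 Ang II libraries at 14 days 2 come from series 30, which has no sham. Near the threshold stood Acsl1 (log2 0.56, limma adjusted p = 0.054) and Elovl6 (log2 -0.88, limma adjusted p = 0.071).

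**Figure D4:**
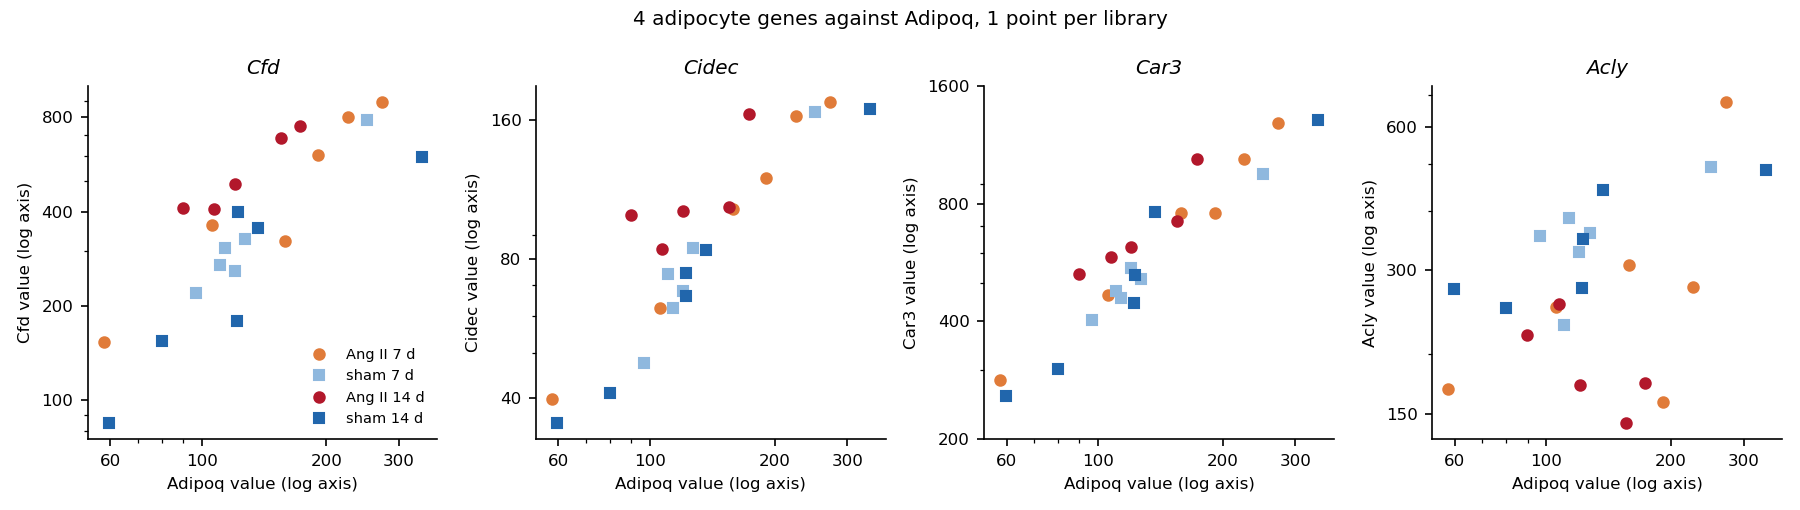
Values of Cfd, Cidec, Car3 and Acly against Adipoq in the 23 libraries, both axes on a log scale, with circles for Ang II and squares for sham at 7 and 14 days. For Cfd and Cidec all 5 Ang II libraries at 14 days have a higher ratio to Adipoq than all 6 sham libraries at 14 days, while for Acly the ratios of these groups overlap.

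Markers of other cells were compared between the same groups. Of all tested genes 0.819% were called at 7 days and 6.06% at 14 days. Pi16, a marker of adventitial fibroblasts and of adipocyte progenitors, was 176 ± 40.5 with Ang II (n = 5) and 102 ± 17.1 in sham (SD, n = 6) at 14 days (log2 0.77 ± 0.17 SE, limma adjusted p = 0.012). It was 169 ± 28.2 with Ang II and 99.98 ± 21.7 in sham at 7 days (SD, n = 6 each; log2 0.78 ± 0.17 SE, limma adjusted p = 0.019). The 10 tested progenitor genes, Pi16 among them, had no common direction. At 7 days 5 fold changes were positive and 5 negative, and at 14 days 6 were positive and 4 negative. Of 7 macrophage markers all had positive fold changes at 14 days and 1 was called, with sums from 433 to 893 with Ang II and from 362 to 562 in sham. The 8 mesothelial markers all had negative ones at 14 days and none was called, with sums from 166 to 262 with Ang II and from 214 to 620 in sham. The part of these cells in the Cfd, Cidec, Car3 and Acly results was not tested.

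Of the brown adipocyte genes, Ucp1 stood out in 2 libraries. It reached 25.5 (552 reads) in Ang II replicate 4 at 14 days and 8.28 (159 reads) in Ang II replicate 1 at 14 days. The other 3 Ang II libraries at 14 days had 0.0859, 0.351 and 0. Sham replicate 6 at 14 days, the library richest in Adipoq, had 1.13 (19 reads), and the other 5 sham libraries of that time had 0 reads. At 7 days no library exceeded 0.156 with Ang II and 0.446 in sham. In all, 13 libraries had no Ucp1 read, which allows a value of up to 0.113 to 0.977 depending on the depth (3 reads, counting error only). Ucp1 did not pass the filter and was not tested, and a group mean would rest on 2 animals.

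Elovl3, an elongase of brown fat, had its most reads in the same 2 libraries, with 25 in Ang II replicate 4 and 10 in Ang II replicate 1 at 14 days and 6 or fewer elsewhere. Its values there were 1.15 and 0.521. Its exons overlap Pitx3 on the other strand by 10 bases only, and counts this low are uncertain in any case. Cidea was 2.92, 2.88, 3.01, 9.04 and 2.33 in the 5 Ang II libraries at 14 days, against 1.70, 2.10 and 5.25 as the lowest, median and highest in sham, with its maximum again in replicate 4 (log2 0.42 ± 0.29 SE, limma adjusted p = 0.39). In that library Adipoq stood at 173, well under the 340.0 of sham replicate 6, so Ucp1 and Adipoq had their maxima in different libraries.

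**Figure D5:**
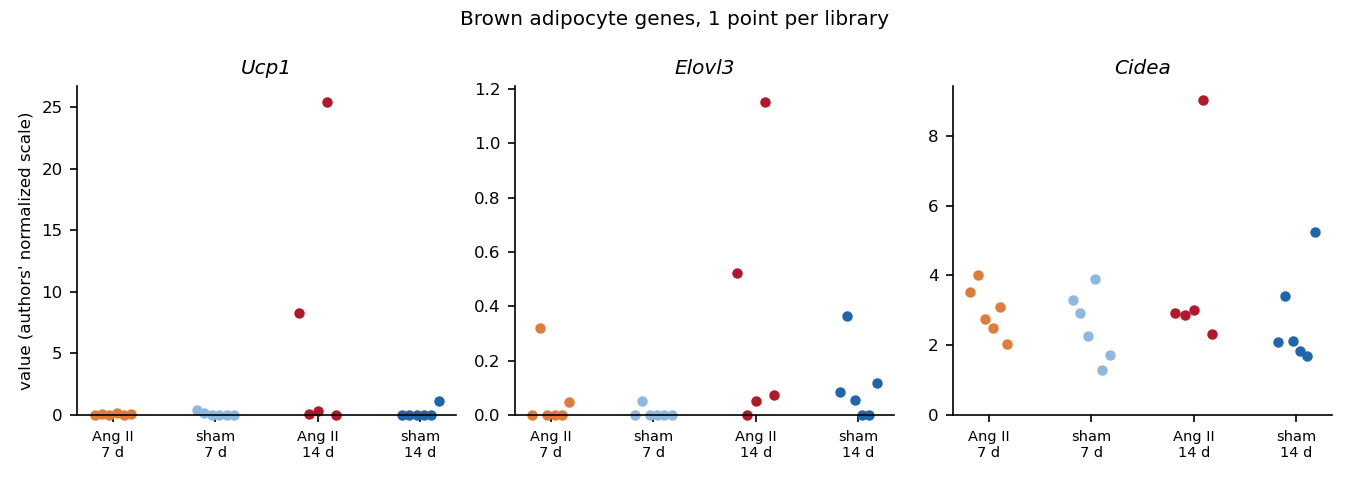
Values of the brown adipocyte genes Ucp1, Elovl3 and Cidea on the authors' normalized scale, 1 point per library, Ang II left of sham at each time. Ucp1 is near 0 except in Ang II replicates 4 and 1 at 14 days, which have 25.5 and 8.28.

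Wider lists of fat genes, chosen with earlier results of these data known, were counted in the same fits, where 0.819% of all tested genes were called at 7 days and 6.06% at 14 days. Of 46 further tested adipocyte and lipid genes 0 were called at 7 days and 1 at 14 days, with medians of 0.02 on the log2 scale at both times. That gene was Irs1, the insulin receptor substrate, at 75.5 ± 16.2 with Ang II (n = 5) and 47.0 ± 6.17 in sham (SD, n = 6; log2 0.66 ± 0.13 SE, limma adjusted p = 0.0057). Of 21 tested genes of brown and beige fat 0 were called at 7 days and 1 at 14 days, Ucp2, a relative of Ucp1 found in many cells including macrophages. It stood at 56.2 ± 19.97 with Ang II (n = 5) and 31.9 ± 8.53 in sham (SD, n = 6; log2 0.78 ± 0.21 SE, limma adjusted p = 0.031). The brown lineage factor Zic1 was at 0 in all 23 libraries. Among 10 tested progenitor genes 1 was called at 7 days, Pi16, and 2 at 14 days, Pi16 and F3. The median log2 fold change of the 10 was 0.01 at 7 days and 0.06 at 14 days, against 0.00 and 0.03 for all genes. F3, which encodes tissue factor, was 108 ± 14.1 with Ang II (n = 5) and 80.4 ± 15.1 in sham (SD, n = 6; log2 0.43 ± 0.13 SE, limma adjusted p = 0.047).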

How the data were processed

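Total RNA of mesenteric arteries was sequenced in 23 libraries, 1 animal each by the titles. STAR 2.3.1, edgeR 3.6.8, HTSeq 0.5.3p3, bcl2fastq 1.8.4, R 3.2.3, FastQC and the mm10 build are named per the submitters' processing notes, which were used here without roles or order. The labels' protocols name a stranded library kit. No source used here gives the strand setting of the counting, the annotation or the normalization. The 10 adipocyte genes whose exons overlap a gene on the other strand (Plin4, Lipe, Mgll, Adrb3, Acsl1, Cebpa, Elovl3, Elovl6, Gpd1 and Agpat2) are therefore uncertain. That overlap runs from 10 bases for Elovl3 to 1039 bases for Acsl1.

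The authors deposited 1 table of normalized signal values for 39179 genes. Of its 460324 values above 0, 100% were whole multiples of the library's smallest value within 0.001, so whole reads were recovered; by count tests on those reads edgeR 4.0.16 and DESeq2 1.42.0 called 0 and 2 of the 34 tested adipocyte genes at 14 days, and DESeq2 called 1795 genes in all.

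The main test was limma 3.58.1 (R 4.3.3, trend and robust) on log2(value + 0.5), in 1 fit with 4 group means over genes with a value of at least 1 in 5 libraries, with Benjamini-Hochberg adjustment per contrast. A fold change on that scale understates low genes. Correlations used 100000 permutations within groups. The fits were tested on simulated counts, with and without a covariate. Adipocyte genes and lists were chosen with earlier results of these data known. All 36 genes are named, with called genes of 3 related lists (up to 6 each) and the 10 genes most like Adipoq. Lengths and overlaps come from GENCODE M21 (longest principal transcript). Alternatives covered the pseudocount (0.1 and 1), the filter, scaling, count tests, separate fits, the title series and leaving out each library. Of the 48 other adipocyte genes 1, Pc, was not analysed here.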

Additional observations from a re-analysis of the deposited data

Results flagged for a closer look

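In groups of 5 or 6 libraries a value was looked at again when its gap to the nearest library of the group, as a share of the group's range, was above Dixon's 95% critical value. Of 144 groups (36 genes in 4 groups) 42 values met this, and chance gives about 1 in 20. The genes vary together, so these values are not independent.

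Sham replicate 4 at 7 days was high for 17 genes. Its hormone genes stood at 251 for Adipoq, 124 for Retn and 785 for Cfd, where the other 5 sham libraries reached at most 127, 66.5 and 327. The droplet and lipase genes stood at 81.2 for Plin1, 434 for Plin4, 166 for Cidec, 96.1 for Lipe, 140 for Mgll and 42.2 for Adrb3. The uptake genes stood at 337 for Cd36 and 576 for Fabp4, and Cebpa at 57.1. The synthesis genes stood at 108 for Thrsp, 84.2 for Agpat2, 35.7 for Dgat1 and 157 for Dgat2, and Car3 at 952. Ppargc1a was the exception, low at 2.79 where the other 5 had at least 6.10.

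Ang II replicate 2 at 7 days was high for genes of fatty acid synthesis, with Fasn at 1874 (the other 5 had at most 853), Acaca at 570 (at most 266) and Acly at 676 (at most 308). It was also high for Dgat2 at 207, Slc2a4 at 51.7 and Elovl3 at 0.322.

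In the 14-day Ang II group replicate 4 was high for Cidec at 164 (the other 4 had at most 104), Cidea at 9.04 (at most 3.01) and Agpat2 at 62.3 (at most 41.3). Replicate 1, the library with 8.28 for Ucp1, was low for Adrb3 at 5.78 (the other 4 had at least 16.6) and Aqp7 at 2.50 (at least 6.23).

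Sham replicate 6 at 14 days was high for Adipoq at 340.0 (the other 5 had at most 137), Plin1 at 97.2, Plin4 at 399.9, Cidec at 169, Lipe at 104, Mgll at 170.0, Pparg at 26.7, Scd1 at 6362, Dgat2 at 251 and Ucp1 at 1.13. Low counts gave the rest, with Ucp1 at 0.446 (5 reads) in sham replicate 1 at 7 days, and Elovl3 at 0.0530 (1 read) in sham replicate 2 at 7 days and at 0.366 (3 reads) in sham replicate 2 at 14 days.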

How the results depend on the processing

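No paired analysis was possible because the labels give each library an animal number and no replicate number shared between groups. Of 680 fold changes of single adipocyte genes under alternatives other than leaving out a library, 655 kept their sign and their side of the threshold, and of 117 correlations 107 did. Without the 2 libraries farthest in Adipoq or without removal of group means 9 correlations no longer passed, and the smooth muscle sum turned to 0.015 when group means stayed in. Depth limits Ucp1, Elovl3, Plin5 and Cidea most. The causes of the changes below were not tested.

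Counts over all genes at 7 days were 212 with DESeq2 and, at equal Adipoq level, 239 with DESeq2 and 91 with the title series as a term. At 14 days they were 573 without the filter, 3862 on library totals without AY036118, 1795 with DESeq2, 343 in the fit of the 14-day groups alone and 16 with the title series. At equal Adipoq level they were 778 without the filter, 4129 without AY036118, 2225 with DESeq2 and 140 with the title series at 14 days. DESeq2 gave 7 for the difference of the responses and 1 between the sham groups. Adipocyte genes called at 14 days numbered 1 without AY036118 (Cfd), 2 with DESeq2 and 1 in the fit of the 14-day groups alone (Acly). At equal Adipoq level they numbered 7 without AY036118, 7 with DESeq2 and 1 with the title series.

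Signs that turned at 7 days were those of Retn (0.045 without AY036118, 0.098 with edgeR, 0.083 with DESeq2, 0.034 with the title series), Ppargc1a (-0.028 with edgeR, -0.049 with DESeq2) and Thrsp (0.045 and 0.031 in the same order). At 14 days they were those of Adipoq (-0.016 with upper-quartile scaling, -0.15 with edgeR, -0.18 with DESeq2), Adrb3 (-0.19 with edgeR, -0.22 with DESeq2, -0.18 with the title series), Mgll (-0.0011 with DESeq2) and Pck1 (-0.24 with the title series). On library totals without AY036118 they were those of Cd36 (0.055), Retn (0.13), Slc2a4 (0.070), Fasn (0.10) and Ppargc1a (0.029).

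Leaving out each library in turn gave 68 to 151 genes in all at 7 days and 399 to 2193 at 14 days, 0 to 1 between the sham groups, and at equal Adipoq level 61 to 167 at 7 days, 572 to 2459 at 14 days and 2 to 6 adipocyte genes at 14 days. The log2 fold changes at 7 days that changed sign ran from -0.12 to 0.25 for Lipe, -0.25 to 0.26 for Retn, -0.17 to 0.27 for Gpd1, -0.20 to 0.22 for Agpat2, -0.16 to 0.10 for Ppargc1a, -0.39 to 0.11 for Adrb3, -0.023 to 0.20 for Mgll, -0.013 to 0.37 for Cebpa, -0.45 to 0.14 for Thrsp and -0.36 to 0.074 for Lep. At 14 days they ran from -0.34 to 0.093 for Cd36, -0.33 to 0.23 for Retn, -0.17 to 0.33 for Adipoq, -0.41 to 0.20 for Fasn, -0.14 to 1.04 for Pck1, -0.28 to 0.021 for Ppargc1a, -0.29 to 0.48 for Adrb3, -0.022 to 0.27 for Mgll and -0.033 to 0.40 for Fabp4.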

Other observations

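Sham replicate 4 at 14 days held high values of 3 genes from the brown and beige list that striated muscle also makes. Cox7a1 was 27.1 there and 2.81 or less in the other 22 libraries, Fabp3 was 54.5 and 6.07 or less elsewhere, and Cox8b was 16.7 and 12.7 or less elsewhere. The sum of 6 skeletal muscle markers in that library was 42.8, where the other 5 sham libraries of that time had at most 7.03, and Ucp1 was at 0 reads in it. These genes were chosen after their values were seen.

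In Ang II replicate 4 at 14 days, the library with the most Ucp1, Cox8b stood at 11.2, Otop1 at 2.12 and Slc27a2 at 0.5995, against medians over all libraries of 4.62, 0.57 and 0.11. These are 3 of 29 listed genes of brown and beige fat. Others of that list were under their medians in the same library, such as S100b at 8.12 (median 9.98) and Cpt1b at 0.184 (median 0.333). Otop1 was higher in sham replicate 6 at 14 days, at 2.21. Ang II replicate 1 at 14 days, with Ucp1 at 8.28, had 4.32 for Cox8b, 0.573 for Otop1 and 0.104 for Slc27a2. Prdm16, a regulator of the brown and beige programme, was 38.2 in Ang II replicate 4 and 62.05 in Ang II replicate 3, where Ucp1 was 0.351. Fasn and Scd1 together made up 36.6 ± 7.64% of the summed values of the 36 genes with Ang II (SD, n = 5) and 46.5 ± 3.03% in sham (n = 6) at 14 days, and 34.9 ± 9.13% and 42.8 ± 4.54% in the same order at 7 days (n = 6 each).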
